A study of Mus musculus with 13 samples.

Results

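The 9 genes described here encode the machinery that anchors a stratified epithelium to its basement membrane: the integrin subunits Itga6, Itgb4, Itga3 and Itgb1, the laminin-332 chains Lama3 and Lamb3, the plakins Dst and Plec, and the tetraspanin Cd151. They were taken by name from the 55332 genes with values in a bulk RNA sequencing table of 13 mouse tumors. The list was chosen with earlier results of these data known. All 9 were found and all 9 passed the filter on low counts in every comparison. The tumors were NUT carcinomas, aggressive poorly differentiated squamous cancers driven by a fusion oncogene, and the study asked what becomes of them when the transcription factor gene Sox2 is deleted as they form.

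Every tumor arose in a mouse with 1 NCT allele (NCT+/-), in which Cre recombinase induces the translocation that makes the fusion, so that Cre and the fusion were common to all groups. The 4 oral Sox2 WT tumors carried KRT14-Cre, which is active in basal cells of surface epithelia, and the 4 pancreatic Sox2 WT tumors carried Pdx1-Cre, which is active in the developing pancreas. The 2 oral Sox2 KO tumors are labelled KRT4Cre; NCT+/-; Sox2fl/fl, although the study's methods name KRT14-Cre as the oral driver. The 3 pancreatic Sox2 KO tumors are labelled Pdx1-Cre; NCT+/-; Sox2fl; fl. Ages and sexes are not in the labels. Site and Cre driver go together in these groups and cannot be told apart. Each tumor gave 1 library of dissected tissue, so that stroma and neighbouring tissue are in the measurement. Nothing in the labels says which tumors came from separate mice, and p-values then measure the spread between these tumors.

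A hemidesmosome is a rivet-like junction at the base of an epithelial cell. The integrin α6β4, made of the products of Itga6 and Itgb4, spans the membrane and binds laminin-332 outside the cell, while plectin (Plec) and dystonin (Dst, whose epithelial isoform is BPAG1e) tie its cytoplasmic tail to keratin filaments. CD151 binds laminin-binding integrins in the membrane. The integrin α3β1 (Itga3 and Itgb1) binds the same laminin but connects to actin rather than to keratin, and β1 also pairs with many other α subunits. Laminin-332 is a trimer that holds the products of Lama3 and Lamb3. These genes are characteristic of the basal layer of oral mucosa and skin, and plectin and dystonin also have isoforms in muscle.

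The promoters of 3 of the genes are shown, chosen from the members for which a promoter window was matched. None was matched for Itga6 and Itgb4, which were called in both site comparisons below. RefSeq windows on GRCm38.p6 that end at the base before an annotated start were matched by symbol for 5 of the 9 members (Itgb1, Lamb3, Dst, Itga3 and Cd151). Each is printed on the sense strand over 250 bases, and capitals mark matches, on either strand, to the motifs SOX (ACAAAG or ACAATG), GC box (GGGCGG), AP-1 (TGANTCA) and TATA box (TATAAA), which do not overlap in these windows. Itgb1 lies at chr8:128685404-128685653 on the plus strand, Lamb3 at chr1:193301744-193301993 on the plus strand, and the windows of Dst, an upstream and a downstream start of the same gene, at chr1:34011345-34011594 and chr1:34160010-34160259 on the plus strand.
Itgb1: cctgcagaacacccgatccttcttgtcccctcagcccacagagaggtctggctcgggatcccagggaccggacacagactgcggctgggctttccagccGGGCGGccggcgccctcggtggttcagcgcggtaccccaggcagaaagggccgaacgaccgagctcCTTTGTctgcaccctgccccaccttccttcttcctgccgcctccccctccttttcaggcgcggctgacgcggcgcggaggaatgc
Lamb3: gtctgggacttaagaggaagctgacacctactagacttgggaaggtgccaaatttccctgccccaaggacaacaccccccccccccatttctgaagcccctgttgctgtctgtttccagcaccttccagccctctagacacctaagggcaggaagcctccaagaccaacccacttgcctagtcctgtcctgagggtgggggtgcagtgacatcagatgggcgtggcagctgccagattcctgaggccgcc
Dst upstream start: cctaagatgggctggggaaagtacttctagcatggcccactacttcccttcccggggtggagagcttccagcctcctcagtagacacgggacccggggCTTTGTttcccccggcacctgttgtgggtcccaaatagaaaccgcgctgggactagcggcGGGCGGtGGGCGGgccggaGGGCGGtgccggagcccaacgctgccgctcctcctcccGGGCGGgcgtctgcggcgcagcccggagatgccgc
Dst downstream start: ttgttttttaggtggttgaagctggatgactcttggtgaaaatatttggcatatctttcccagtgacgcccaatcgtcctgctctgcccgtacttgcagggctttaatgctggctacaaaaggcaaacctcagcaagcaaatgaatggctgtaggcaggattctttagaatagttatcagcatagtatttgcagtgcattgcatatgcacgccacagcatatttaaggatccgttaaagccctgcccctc
In the Itgb1 window, 1 SOX match begins 85 bases before the start and 1 GC box begins 151 bases before it, and the GC content is 68.0%. The upstream Dst window holds 4 GC boxes and 1 SOX match with a GC content of 68.8%, while the downstream one, 148665 bases away, holds none of the motifs at 45.2% GC. The Lamb3 window holds none of them either, at 58.8% GC. A second Lamb3 window, also without a match, and the windows of Itga3 and Cd151 are not shown. Of these, 1 Itga3 window holds a SOX match that begins 56 bases before its start. Over 32851 promoter windows of the same length, 25.2% held a SOX match, 32.7% a GC box, 6.75% an AP-1 match and 12.4% a TATA box. A match is a run of letters and was not tested as a binding site. The counts sum the transcripts of a gene, so that the 2 starts of Dst are not separated in the values.

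Estimated counts per tumor totalled 29394258 to 40420228 in oral WT, 11735315 and 20432164 in oral KO, 40964533 to 46134830 in pancreatic WT and 89562790 to 120482829 in pancreatic KO tumors. The smallest count of a member in any tumor was 362, so that none was near the detection limit. Sox2 was measured at 9.05 to 19.7 CPM (counts scaled to the library total, with TMM factors over the 13 tumors) in oral WT and 29.2 to 34.1 CPM in pancreatic WT tumors, and at 0 to 0.0390 CPM in every KO tumor, so that each tumor matched its genotype label. The share of counts from protein-coding genes was 59.5% in oral KO tumor 1 and 84.5% to 91.7% in the others. A list of 9 skeletal muscle genes summed to 5583 and 3081 CPM in the oral KO tumors, to 559 CPM in oral WT tumor 4, and to 2.54 to 8.36 CPM in the remaining tumors. Ttn alone made up 2538 to 4130 CPM in the oral KO tumors. All 9 had a positive log2 fold change of oral KO against oral WT tumors. Of them edgeR called 1 (Myh4), where 8.81% of all genes were called higher, and DESeq2 called 2 (Myh4 and Mylpf). The basal keratinocyte markers Krt5, Krt14, Krt15, Trp63 and Krt6a, which match the label of a squamous tumor, summed to 4191 to 8301 CPM in oral WT, 3657 and 5921 CPM in oral KO, 9110 to 16819 CPM in pancreatic WT and 10896 to 13255 CPM in pancreatic KO tumors, and no marker of this list was at 0 in any group.

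Together the 9 genes took 0.192% to 0.347% of the counts in oral WT tumors, 0.190% and 0.335% in oral KO tumors, 0.293% to 0.458% in pancreatic WT tumors and 0.474% to 0.514% in pancreatic KO tumors. The plot of their levels gives every tumor.

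**Figure D1:**
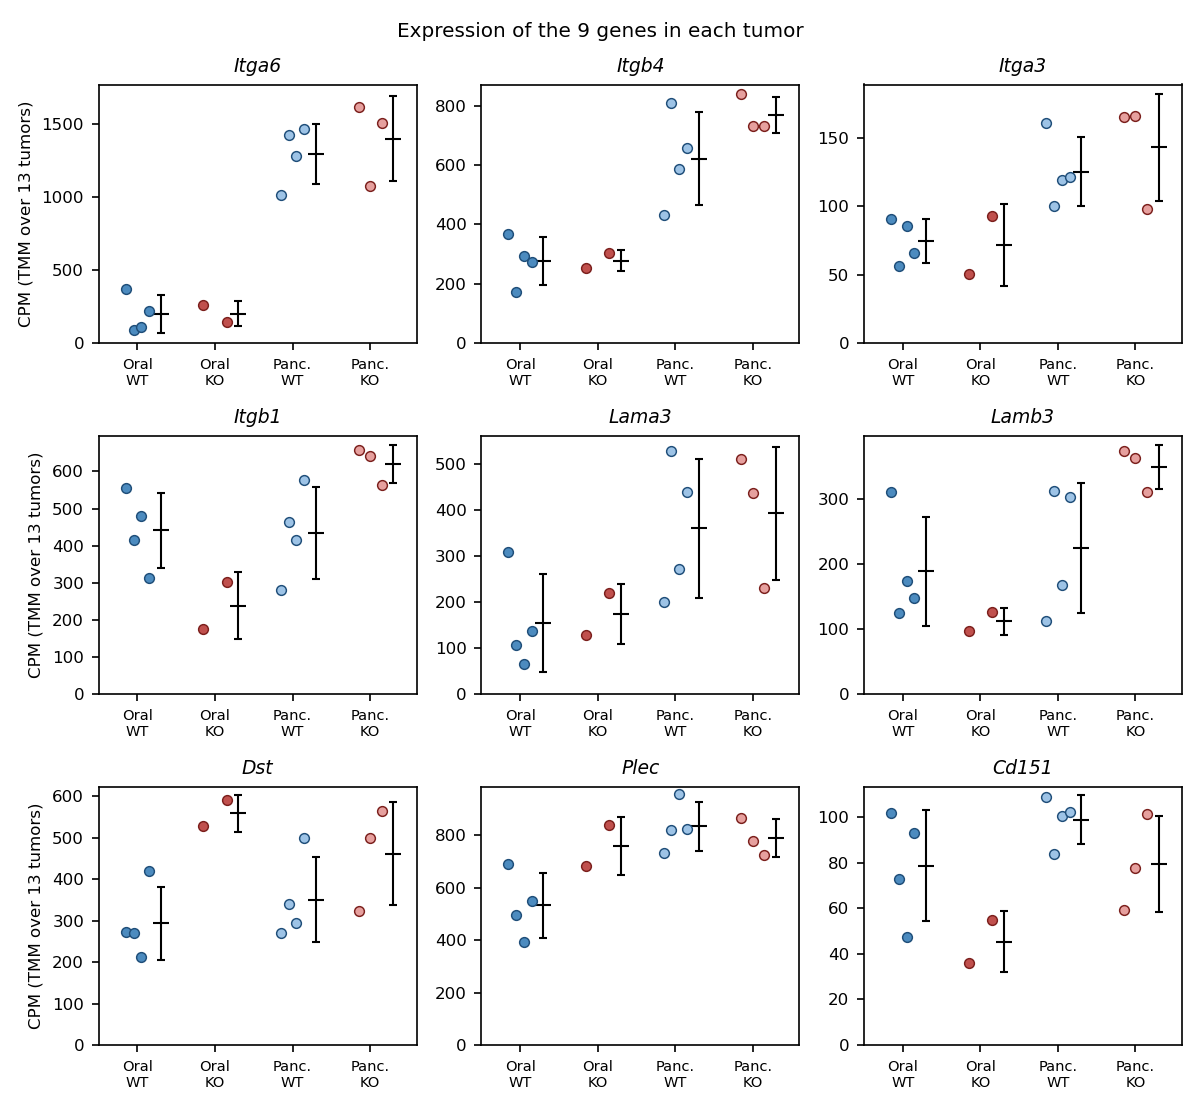
Level of each of the 9 genes in every tumor, in CPM on a linear axis from 0, with 1 panel per gene. Each point is 1 tumor, and the bars give the mean ± SD of its group (oral WT, oral KO, pancreatic WT, pancreatic KO). The pancreatic tumors sit above every oral tumor for Itga6 and Itgb4, while Itgb1 in the oral KO tumors, at 175 and 302 CPM, sits below every oral WT tumor.

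Of the 9 members, Itga6 had the largest difference between sites in both genotypes. Itga6 (ENSMUSG00000027111, chr2:71745616-71858416, plus strand, GRCm38) encodes the α6 subunit. It stood at 369.7, 89.4, 107 and 222 CPM in the oral WT tumors, at 260.4 and 142 CPM in oral KO tumors, at 1012, 1425, 1281 and 1467 CPM in the pancreatic WT tumors, and at 1618, 1072 and 1510.2 CPM in the pancreatic KO tumors. No oral tumor reached the level of any pancreatic tumor, and within a site the KO and WT ranges overlapped. Comparing WT tumors between sites, Itga6 was 6.57-fold lower in oral tumors (log2 fold change -2.72, standard error 0.45, adjusted p = 0.00405 from edgeR), and between KO tumors it was 7.21-fold lower (-2.85, standard error 0.37, adjusted p = 0.00787). Of the 31-base sequences of Itga6 transcripts, 6.15% also occur in other genes, mostly in Gm29397, and how these reads were divided is not visible in the counts.

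Itgb4 (ENSMUSG00000020758, chr11:115974709-116008412, plus strand), which encodes the β4 partner of α6, followed with smaller differences. Its levels were 367, 172, 295 and 271 CPM in oral WT, 252 and 302 CPM in oral KO, 433, 808, 586 and 657 CPM in pancreatic WT and 838, 733 and 731 CPM in pancreatic KO tumors. The highest oral value, 367 CPM, lay below the lowest pancreatic one, 433 CPM. Itgb4 was 2.25-fold lower in oral than in pancreatic WT tumors (log2 -1.17, standard error 0.26, edgeR adjusted p = 0.0121) and 2.88-fold lower between the KO tumors (-1.53, standard error 0.19, adjusted p = 0.00737). Without oral WT tumor 2 the WT value was -0.99 at an adjusted p of 0.0235, just under the 2-fold limit used for a call.

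Across the 9 members, 2 passed the thresholds between WT tumors of the 2 sites (adjusted p under 0.05 and more than a 2-fold difference), both lower in oral tumors, where 7.24% of the 23164 genes tested were lower and 16.5% differed in either direction. Another 2, Itga3 and Plec, passed on adjusted p alone, as did 23.7% of all genes with the calls included. The groups did not overlap for 4 members, each lower in oral tumors, against 13.8% of all genes in that direction. The median log2 difference of the members was -0.65, against 0.00 over all genes tested. Between KO tumors, 4 members were called, again all lower in oral tumors (Itga6, Itgb4, Itgb1 and Lamb3), against 10.7% of the 24787 genes tested that were lower and 25.2% called in either direction. There the groups did not overlap for 7 members, against 30.7% of all genes in that direction, and the median was -1.22 against -0.00. In bulk tumors, fewer cells of a type and less RNA per cell cannot be told apart. The site comparisons came with other differences in composition. The fibroblast markers Col1a1, Col1a2, Col3a1, Pdgfra and Dcn summed to 8433 to 18462 CPM in oral and 1108 to 3525 CPM in pancreatic tumors, and the simple epithelial markers Epcam, Krt8, Krt18, Krt19 and Cdh1 to 205 to 748 CPM and 1340 to 2589 CPM. All 5 fibroblast markers were called higher and all 5 simple epithelial markers lower in oral WT tumors, and their part in the differences of the integrins was not tested. Of the 5 basal keratinocyte markers, Krt5 (log2 -1.10) and Krt6a (-1.43) were called lower and Krt15 (2.12) higher in oral than in pancreatic WT tumors by edgeR. Krt14 (-1.28, adjusted p = 0.0652) and Trp63 (0.10, adjusted p = 0.748) were not called, and DESeq2 also called Krt14 lower. Their part in the differences was not tested either.

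**Figure D2:**
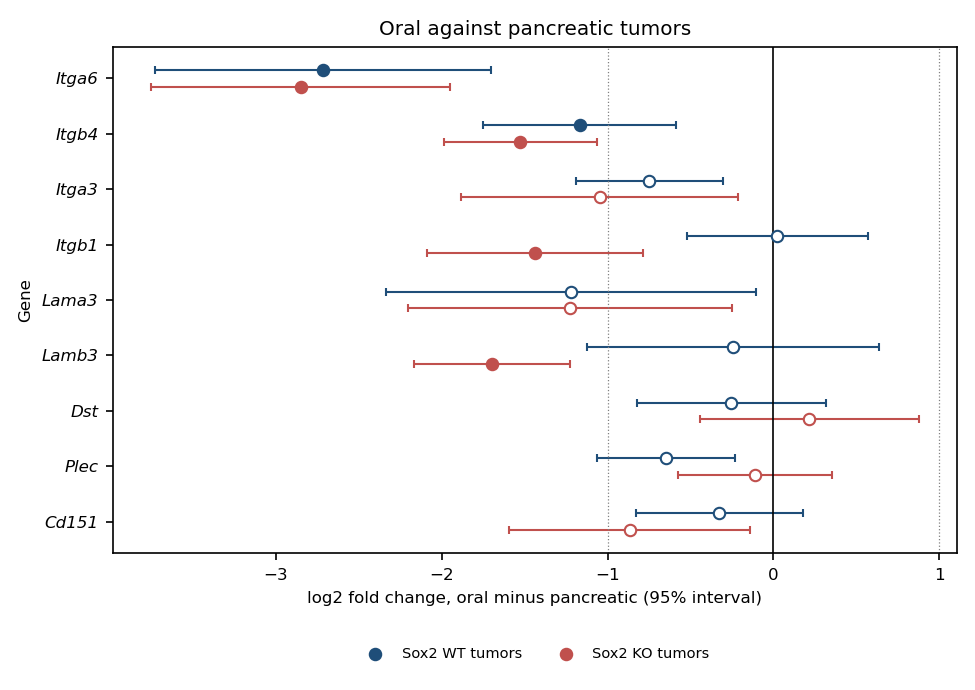
Difference between oral and pancreatic tumors for each of the 9 genes, as the log2 fold change (oral minus pancreas) with its 95% interval, for WT and for KO tumors; filled points passed the thresholds, open points did not, and dotted lines mark 2-fold differences. Itga6, at -2.72 and -2.85, lies farthest from 0, and the intervals of Dst include 0 in both genotypes.

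The actin-linked integrin α3β1 did not move as a pair. Itga3 (ENSMUSG00000001507, chr11:95044474-95076801, minus strand) stood at 90.5, 56.1, 85.6 and 65.7 CPM in oral WT, 50.6 and 92.7 CPM in oral KO, 161, 119 and 121 CPM, with a lowest value of 100 CPM, in pancreatic WT, and 165, 166 and 98.0 CPM in pancreatic KO tumors. The sites did not overlap in either genotype, and the distance was small, with 92.7 CPM as the highest oral and 98.0 CPM as the lowest pancreatic value. The WT difference, -0.75 (standard error 0.20), had an adjusted p of 0.0239 in edgeR but was under 2-fold, and the KO difference, -1.05 (standard error 0.34), had an adjusted p of 0.0611. Without pancreatic KO tumor 3, which had the lowest of the pancreatic values, the KO difference was -1.24 at an edgeR adjusted p of 0.0486 and passed.

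Itgb1 (ENSMUSG00000025809, chr8:128685654-128733200, plus strand) encodes the β1 subunit shared by most matrix-binding integrins. In the mouth it stood at 555, 416, 480.5 and 314 CPM in WT and at 175 and 302 CPM in KO tumors. In the pancreas it stood at 280.1, 465, 417 and 578 CPM in WT and at 658, 641 and 563 CPM in KO tumors. Both oral KO tumors lay below all 4 oral WT tumors, while in the pancreas 2 of the 3 KO tumors lay above every WT tumor. Between WT tumors the sites did not differ detectably (log2 0.02, 95% interval -0.52 to 0.57, edgeR adjusted p = 0.963), and between KO tumors Itgb1 was 2.71-fold lower in oral tumors (-1.44, standard error 0.27, adjusted p = 0.0146).

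Neither site alone gave a call for Itgb1 on loss of Sox2. From WT to KO its log2 change was -0.82 among oral tumors (standard error 0.31, edgeR adjusted p = 0.113) and 0.52 among pancreatic tumors (standard error 0.22, adjusted p = 0.302). These 2 changes were set against each other by testing the interaction of site and genotype in 1 fit of all 13 tumors, and the interaction (oral minus pancreatic) was -1.40 (standard error 0.40, 95% interval -2.27 to -0.53, edgeR adjusted p = 0.0368). Itgb1 was the 1 member of 9 called there, against 12.3% of the 25836 genes tested in either direction and 4.85% lower. The call was lost with protein-coding genes alone (-1.21, adjusted p = 0.0776). It was also lost when oral WT tumor 1, 2 or 3, oral KO tumor 1, pancreatic WT tumor 2 or 3 or any of the pancreatic KO tumors was left out, with values of -1.46 to -1.11 and adjusted p values of 0.0508 to 0.123. The value of -1.11 was the one without oral KO tumor 1, the library with the low protein-coding share. No alternative turned the direction. In the oral KO tumors the epithelial marker Krt15 was called lower than in oral WT tumors (log2 -3.11, edgeR adjusted p = 0.0398). Krt5 (-1.04, edgeR adjusted p = 0.0537) and Epcam (-1.81, edgeR adjusted p = 0.0530) were lower without overlap but not called. Of the 5 basal keratinocyte markers, 3 were lower and 2 higher there. The mean of Krt14 was 1374 CPM in oral KO and 1379 CPM in oral WT tumors, and that of Krt6a 1546 and 1234 CPM. All 5 simple epithelial markers were lower. The part of these markers in the values of Itgb1, and that of the skeletal muscle markers, was not tested.

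**Figure D3:**
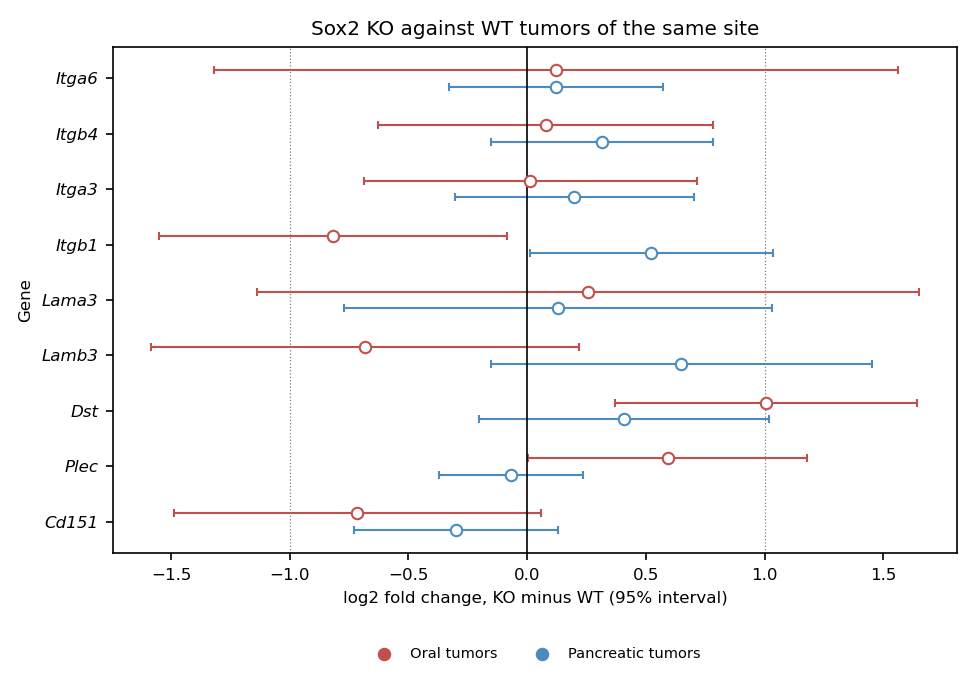
Change from Sox2 WT to Sox2 KO for each of the 9 genes in oral and in pancreatic tumors, as the log2 fold change (KO minus WT) with its 95% interval; dotted lines mark 2-fold changes, and open points did not pass the thresholds. Itgb1 lies at -0.82 in oral and 0.52 in pancreatic tumors, and Dst, at 1.01, is the highest oral value.

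The laminin-332 chains varied widely within groups. Lama3 (ENSMUSG00000024421, on chromosome 18) encodes the α3 chain, which integrins bind. It stood at 308, 107, 64.6 and 136 CPM in oral WT, 128 and 220.1 CPM in oral KO, 199, 527, 272 and 438 CPM in pancreatic WT and 509, 436 and 230.1 CPM in pancreatic KO tumors. Oral WT tumor 1 reached into the pancreatic range, and the WT site difference of -1.22 (standard error 0.49, edgeR adjusted p = 0.106) was not called. Without that tumor it was -1.80 at an adjusted p of 0.0185 and passed. The KO site difference, also -1.22 (standard error 0.40), had an adjusted p of 0.0615, and without pancreatic KO tumor 3, whose 230.1 CPM was the lowest of its group, it was -1.48 at an adjusted p of 0.0355.

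Lamb3 (ENSMUSG00000026639, chr1:193207699-193343878, plus strand), which encodes the β3 chain, stood at 311, 124, 173 and 147 CPM in oral WT and at 97.1 and 126 CPM in oral KO tumors. In pancreatic WT tumors it stood at 112, 313, 167 and 303 CPM and in pancreatic KO tumors at 374, 362 and 311 CPM. The WT tumors of the 2 sites overlapped throughout, and their difference was -0.24 (95% interval -1.12 to 0.64, edgeR adjusted p = 0.697). The KO tumors were far apart, with levels 3.25-fold lower at the oral site (-1.70, standard error 0.19, adjusted p = 0.00639). The changes from WT to KO, -0.68 in oral (adjusted p = 0.241) and 0.65 in pancreatic tumors (adjusted p = 0.410), were not called, and nor was the difference between them, -1.40 (standard error 0.57, adjusted p = 0.107).

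The plakins, which tie the junction to keratin, had the highest values of oral KO against oral WT tumors among the members, and neither was called. Dst (ENSMUSG00000026131, chr1:33908225-34308661, plus strand) stood at 273, 271, 213 and 419 CPM in oral WT and at 528 and 591 CPM in oral KO tumors, so that both KO tumors lay above every WT tumor. In the pancreas it stood at 271, 339, 293 and 500.2 CPM in WT and 323, 498 and 564 CPM in KO tumors, with overlapping ranges. The oral difference, 1.01 on the log2 scale (standard error 0.27, 95% interval 0.37 to 1.64), had an edgeR adjusted p of 0.0501, just outside the threshold. With at least 10 counts required in every tumor it was 1.11 (adjusted p = 0.0383), and without oral WT tumor 4 it was 1.24 (adjusted p = 0.0258), both past the threshold. Oral WT tumor 4, which had the highest Dst level of the oral WT tumors, also had the highest sum of skeletal muscle markers among them, and the oral KO tumors were higher in both. The part of muscle in the difference was not tested. The pancreatic change was 0.41 (standard error 0.26, 95% interval -0.20 to 1.02), and the changes at the 2 sites differed by 0.53 (standard error 0.41, adjusted p = 0.375).

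Plec (ENSMUSG00000022565, chr15:76170974-76232574, minus strand), which encodes plectin, stood at 689, 498, 394 and 549.9 CPM in oral WT, 682 and 839 CPM in oral KO, 735, 821, 959 and 825 CPM in pancreatic WT and 866, 780.0 and 725 CPM in pancreatic KO tumors. Oral KO tumor 2 lay above the oral WT range and oral KO tumor 1 just below its highest value. The oral change was 0.59 (standard error 0.25, edgeR adjusted p = 0.139), and the pancreatic one -0.07 (standard error 0.13, 95% interval -0.37 to 0.24, adjusted p = 0.849). Between WT tumors Plec was 1.57-fold lower at the oral site (-0.65, standard error 0.18, adjusted p = 0.0334), and between KO tumors the difference was -0.11 (95% interval -0.58 to 0.36, adjusted p = 0.674).

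Cd151 (ENSMUSG00000025510, chr7:141467392-141471473, plus strand) stood at 102, 72.6, 47.2 and 93.1 CPM in oral WT, 35.9 and 54.8 CPM in oral KO, 109, 83.7, 101 and 102 CPM in pancreatic WT and 59.2, 77.7 and 101 CPM in pancreatic KO tumors. Ordered by their means, each group overlapped the next, although both oral KO tumors lay below all 3 pancreatic KO tumors. Cd151 was not called in any of the 5 comparisons, with an oral change of -0.72 (standard error 0.33, edgeR adjusted p = 0.165), a pancreatic change of -0.30 (standard error 0.19, adjusted p = 0.485), a WT site difference of -0.33 (adjusted p = 0.326) and a KO site difference of -0.87 (adjusted p = 0.0696).

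Over the set, the comparison of KO with WT tumors gave 0 calls among the 9 members at the oral site, where 11.7% of the 22342 genes tested were called by edgeR (0.165% with protein-coding genes alone). DESeq2 with apeglm also gave 0. At an unadjusted p under 0.05 there were 3 members (Dst, Itgb1 and Plec), against 35.4% of all genes, and the KO and WT tumors did not overlap for 2 members (Dst higher, Itgb1 lower), against 48% of all genes. In pancreatic tumors 0 of 9 were called by edgeR or by DESeq2, against 0.629% of the 24653 genes tested, 1 member (Itgb1) had an unadjusted p under 0.05, against 15.9%, and 0 were without overlap, against 15.6%. For the members not yet given, the interval of the difference of KO from WT included 0 at both sites. For Itga6 the log2 value was 0.12 at both sites, with 95% intervals of -1.32 to 1.56 in oral and -0.33 to 0.57 in pancreatic tumors. For Itgb4 it was 0.08 (-0.63 to 0.78) in oral and 0.32 (-0.15 to 0.78) in pancreatic tumors, for Itga3 0.01 (-0.69 to 0.71) and 0.20 (-0.30 to 0.70), and for Lama3 0.26 (-1.14 to 1.65) and 0.13 (-0.77 to 1.03). The oral intervals, from 2 KO tumors, leave room for 2-fold changes of Itga6 and Lama3 in either direction. The pancreatic intervals of Itga6, Itgb4, Itga3, Plec and Cd151 (-0.73 to 0.13) exclude a 2-fold change. The comparisons within and between sites share tumors, so their values are not independent.

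Scaled by the length of their exons, the members held different ranks at the 2 sites. In CPM per kilobase of exon, Itgb1 was the most abundant in oral WT tumors at 108 ± 25.0 (SD, n = 4) and in oral KO tumors at 58.4 ± 21.9 (SD, n = 2), while Itga6 ranked the sixth and the fourth there, at 21.8 ± 14.3 and 22.3 ± 9.25. In the pancreas Itga6 ranked the first in WT tumors at 144 ± 22.8 (SD, n = 4) and in KO tumors at 155 ± 32.1 (SD, n = 3), with ranges that overlapped those of Itgb1, at 107 ± 30.2 and 152 ± 12.4. Dst was the lowest in oral WT, pancreatic WT and pancreatic KO tumors, at 7.14 ± 2.14, 8.53 ± 2.52 and 11.2 ± 3.02, and Itga3 was the lowest in oral KO tumors at 12.6 ± 5.21. The length used for Dst, 41155 bases, is the union of the exons of 20 transcripts, so its level per length is a lower estimate for any single isoform.

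Partners of one complex need not be measured at equal levels, and the ratio of 2 genes within a tumor does not depend on the library scaling. The ratio of Itga6 to Itgb4 per kilobase was 0.784, 0.404, 0.283 and 0.635 in oral WT and 0.805 and 0.366 in oral KO tumors, but 1.37 to 1.82 in pancreatic WT and 1.14 to 1.61 in pancreatic KO tumors. Per kilobase of exon, every oral tumor had less Itga6 than Itgb4 and every pancreatic tumor more. The side of 1 on which a tumor fell depends on the lengths used, 9025 bases for Itga6 and 7015 for Itgb4. These are unions of the exons of 8 and 10 transcripts. Unscaled, Itga6 had more counts than Itgb4 in oral WT tumor 1 (16751 against 16610) and oral KO tumor 1 (2623 against 2534). Differences of the log2 ratio between groups do not depend on these lengths. Between WT tumors the mean log2 ratio differed by -1.75, with an exact two-sided permutation p of 0.0286, the smallest that 70 labelings of 4 against 4 tumors can give. The ratio of Itga3 to Itgb1 was 0.0966 to 0.150 in oral WT and 0.150 to 0.410 in pancreatic WT tumors (log2 difference -0.79), and that of Lama3 to Lamb3 was 0.230 to 0.610 and 0.890 to 1.09 (-1.15), each with the same exact p of 0.0286. After adjustment over the 12 ratio tests these 3 had an adjusted p of 0.114 in the exact permutation test. With these group sizes no adjusted p could fall below 0.05, so that 0 of 12 passing was fixed in advance.

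The Lama3 to Lamb3 ratio did not overlap between KO and WT tumors at either site, with opposite directions at the 2 sites. It was 0.812 and 1.07 in oral KO tumors, above all 4 oral WT tumors, and 0.839, 0.741 and 0.456 in pancreatic KO tumors, below all 4 pancreatic WT tumors. The oral difference, 1.04 on the log2 scale, had an exact permutation p of 0.133 (adjusted p = 0.267). The pancreatic one, -0.61, had an exact permutation p of 0.0571 (adjusted p = 0.171). Before adjustment these are the smallest values that 2 against 4 and 3 against 4 tumors can give. Neither design can reach 0.05. Among single genes, 48% of those tested did not overlap between oral KO and WT tumors, and 15.6% between pancreatic ones. The ratio of Itga3 to Itgb1 was likewise higher in both oral KO tumors, at 0.207 and 0.220, than in every oral WT tumor. The log2 difference was 0.82 (exact permutation p = 0.133, the smallest possible, adjusted p = 0.267). The ratio of Dst to Plec overlapped between groups in all 3 comparisons, with exact permutation p values of 0.267, 0.229 and 0.257.

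**Figure D4:**
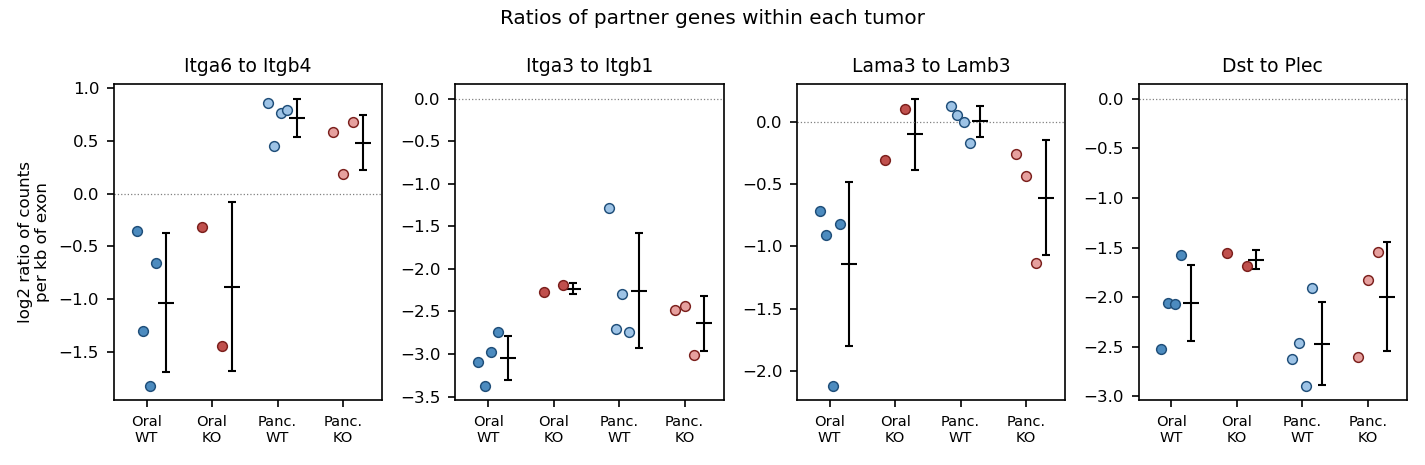
Log2 ratio of partner genes per kilobase of exon in every tumor. There is 1 panel for each of Itga6 to Itgb4, Itga3 to Itgb1, Lama3 to Lamb3 and Dst to Plec. Points are tumors and bars give the mean ± SD of a group. The dotted line at 0 marks equal levels per kilobase, which depend on the exon lengths used. For Itga6 to Itgb4 every oral tumor lies below that line (ratios of 0.283 to 0.805) and every pancreatic tumor above it (1.14 to 1.82).

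Within groups, some members rose and fell together from tumor to tumor. After subtracting each group's mean log2 CPM, the 13 tumors gave a Pearson r of 0.88 for Itgb4 with Lamb3 (Spearman's rho 0.83), 0.81 for Itgb1 with Lamb3 (0.83), 0.80 for Lama3 with Plec (0.74) and 0.79 for Lama3 with Lamb3 (0.77). Without the 2 tumors farthest from the median of the gene named first, r was 0.86, 0.72, 0.55 and 0.84. For the α6β4 pair, Itga6 with Itgb4, r was 0.61 but rho 0.27, and r was 0.12 without the 2 tumors farthest from the Itga6 median. Leaving out such tumors narrows the range of the gene named first, which alone can lower r. The 2 oral KO tumors, as a group of 2, have equal and opposite deviations from their mean. Itga3 with Itgb1 gave 0.31 and Dst with Plec 0.15. These are descriptions of 36 pairs over the same libraries, which also share depth and tissue content.

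**Figure D5:**
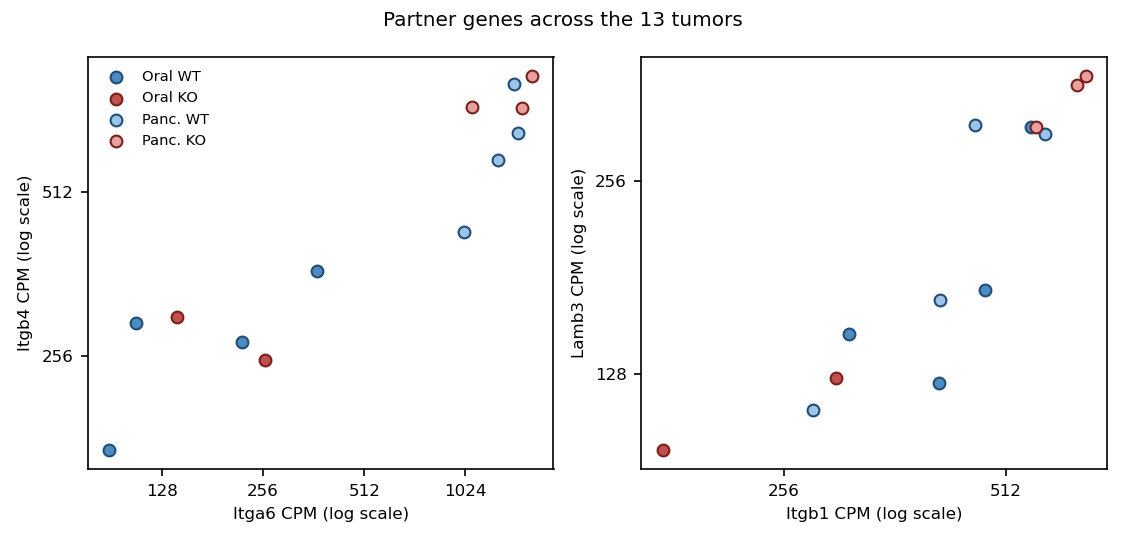
Level of Itgb4 against Itga6 (left) and of Lamb3 against Itgb1 (right), in CPM on log axes, before any group mean was subtracted; each point is 1 of the 13 tumors, coloured by group. For Itga6 and Itgb4 the oral and pancreatic tumors form 2 separate clusters, with no Itga6 value between 369.7 and 1012 CPM, while for Itgb1 and Lamb3 the sites overlap.

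The protein-coding genes whose log2 CPM followed each member most closely over the 13 tumors, among 14147 with a mean of at least 1 CPM, were ranked by Pearson r without a test, and the value mixes site differences with tumor-to-tumor variation. Itga6 was followed by Inava (0.99), Zbtb20 (0.98) and Myo1d (0.98), and Itgb4 by Tes (0.97), Bcar1 (0.96) and Pcolce2 (0.96). Itgb1 was closest to Mis12 (0.96), Itga3 to C2cd2l (0.92), Lama3 to Gys1 (0.93), Lamb3 to Sox5 (0.95), Dst to Cd36 (0.92), Plec to Snapc1 (0.94) and Cd151 to Slc38a7 (0.91).

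Around the 9 genes, other components of the junction and its surroundings were counted from lists of related genes, with the calls of edgeR. Of 7 junction partners, Col17a1, the transmembrane collagen of the hemidesmosome, had the same order of sites as Itga6 and Itgb4. Its mean (± SD) was 459 ± 99.7 CPM over the 4 oral WT, 294 ± 77.5 CPM over the 2 oral KO, 1150.3 ± 317 CPM over the 4 pancreatic WT and 957 ± 149 CPM over the 3 pancreatic KO tumors. It was lower in oral tumors between WT (log2 -1.32, edgeR adjusted p = 0.00621) and between KO tumors (-1.76, adjusted p = 0.00904), where 7.24% and 10.7% of all genes were called lower. In the same list Fras1 and Frem1, which encode proteins of the epithelial basement membrane, and the protease gene Bmp1 were higher in oral WT tumors (5.15, 3.11 and 1.46), and Fras1 also in oral KO tumors (5.02), where 9.3% and 14.6% of all genes were called higher. With loss of Sox2, edgeR called 0 of 7 partners in oral tumors, with 0 at an unadjusted p under 0.05 and 0 called by DESeq2. In pancreatic tumors it called 0 of 7, with 2 at an unadjusted p under 0.05, and DESeq2 called Frem1.

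Plakins outside the hemidesmosome were lower in oral than in pancreatic WT tumors for 3 of 5 genes, Ppl (-2.35), Evpl (-2.33) and Dsp (-1.34), which encode plakins of the cornified envelope and the desmosome. Over all genes tested, 7.24% were called lower there. With loss of Sox2 edgeR called 0 of the 5 in oral tumors (1 at an unadjusted p under 0.05, 0 by DESeq2) and 0 in pancreatic tumors (3 at an unadjusted p under 0.05), where DESeq2 called Ppl and Evpl lower. The difference between the changes at the 2 sites, oral minus pancreatic, was called for Evpl (2.53, edgeR adjusted p = 0.0334) and Macf1 (1.10, adjusted p = 0.0351), 2 of 5 against 7.41% of all genes in that direction. It was the change with loss of Sox2 that was higher in oral tumors, the opposite of Itgb1, and not the level. Mean Evpl was 95.2 CPM in oral WT, 171 in oral KO, 481 in pancreatic WT and 150 in pancreatic KO tumors. For Macf1 these means were 340, 561, 603 and 464 CPM.

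Among 5 other tetraspanins, the family of Cd151, Cd82 and Cd63 fell in oral KO tumors (log2 -1.22 and -1.03, edgeR adjusted p = 0.0208 and 0.0347), where 2.89% of all genes were called lower, and DESeq2 called Cd82 alone. The raised muscle markers of both oral KO tumors and the low protein-coding share of oral KO tumor 1 moved with this comparison, and their part was not tested. In pancreatic tumors 0 of the 5 were called by edgeR or DESeq2, and 0 had an unadjusted p under 0.05. The change with Sox2 loss was lower in oral than in pancreatic tumors for Cd81 (-1.15), Cd82 (-1.19) and Cd63 (-1.21), as for Itgb1. The edgeR adjusted p values were 0.0292, 0.0497 and 0.0186, and 4.85% of all genes were called lower there. Between KO tumors 4 of the 5 were lower in oral tumors (Cd9, Cd81, Cd82 and Cd63) against 10.7% of all genes, and between WT tumors 1 (Tspan8) against 7.24%.

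For the lists that follow, edgeR called 2.89% of all genes lower in oral KO than in oral WT tumors. Between sites it called 7.24% lower and 9.3% higher in oral WT tumors, and 10.7% lower and 14.6% higher in oral KO tumors. For the interaction it called 4.85% lower. A single called gene in a list of this size is not read as a result about the list. Of 7 other integrins of epithelia, Itgb8 fell in oral KO tumors (-1.24, edgeR adjusted p = 0.0285). Itga2 and Itgb6 were lower in oral than in pancreatic WT tumors (-1.02 and -1.64), of which DESeq2 called Itgb6 alone, and Itgb6 and Itgb8 were lower in oral than in pancreatic KO tumors (-1.51 and -1.91). Of 8 other laminin chains, Lama2, a chain of muscle and stromal basement membranes, was higher in oral tumors in both genotypes (2.08 and 2.01). Of 11 basement membrane genes, Nid2 and Sparc were higher in oral than in pancreatic WT tumors (1.33 and 1.87). In the same list Col4a1 and Col4a2 were lower (-1.59 and -1.64) and Col4a6 higher (2.96) in oral than in pancreatic KO tumors, and the change of Sparc with Sox2 loss was lower in oral tumors (-1.91, edgeR adjusted p = 0.0432). Of 9 focal adhesion genes, which serve α3β1 rather than α6β4, Ilk was lower in oral than in pancreatic KO tumors in edgeR (-1.03) but not in DESeq2, and the change of Parva was lower in oral than in pancreatic tumors (-1.11, edgeR adjusted p = 0.0223).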

How the data were processed

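RNA of 13 mouse tumors was depleted of ribosomal RNA and made into stranded libraries. Per the labels and the study's methods, the authors trimmed reads with Trim Galore 0.6.10, quantified them with kallisto 0.50.0 on GENCODE M23 transcripts (GRCm38) and summed transcripts per gene. They deposited these estimated counts without scaling for library size, and 27.3% of the values are not whole. Of 56085 rows, 753 hold no values. Symbols, positions and exon lengths are those of GENCODE M21 (55141 identifiers matched).

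Estimated counts were rounded and analysed with edgeR 4.0.16 in R 4.3.3. A gene was kept where 2 or more tumors of the comparison had 10 or more counts, and groups were compared by a robust quasi-likelihood test with TMM factors and Benjamini-Hochberg adjustment over all genes kept. A call needs more than a 2-fold difference (1 on the log2 scale) and an adjusted p below 0.05, as in the study. Within-site comparisons used the tumors of that site, the comparisons of sites used the tumors of that genotype, and the interaction used all 13. Ratios of 2 genes had 0.5 added to each count and were compared by exact permutation over tumors. Named genes are every member, Sox2, genes of the related lists called in any comparison, and for each member up to 3 genes with the highest Pearson r. The members and all gene lists were chosen with earlier results of these data known. The edgeR tests were checked on simulated counts. For this, 200 genes drawn at random among those with a mean above 1 CPM were changed by 2 on the log2 scale. Of these, 41% were recovered for oral KO against WT, 74.5% for pancreatic KO against WT and 35% for the interaction. Unchanged genes gave 7, 14 and 3 calls there, beside 82, 149 and 70 recovered genes. Between sites 71% were recovered in WT and 51% in KO tumors, so that many changes of this size can be missed. Each site comparison gave 5 calls among unchanged genes. Depth ranged from 11735315 to 120482829 counts per tumor. The limits this sets cover counting error only.

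Same-numbered tumors of compared groups deviated from their group means with correlations of -0.08 to 0.32 over 25836 genes, and only 1 of the 11 was above 0.1, so the numbers were not taken as pairs. Alternatives were edgeR with the size factors of DESeq2, all genes with any count, a stricter filter of 10 counts in each tumor, DESeq2 1.42.0 with apeglm 1.24.0 (no shrinkage for the interaction), protein-coding genes alone, 1 fit of all 13 tumors, a replicate block and leaving out each tumor in turn. Results for 1 gene of the related lists are not reported here.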

Additional observations from a re-analysis of the deposited data

Results flagged for a closer look

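The change of Itgb1 with loss of Sox2 was called different between the sites by edgeR, a call that depended on the processing and on single tumors. The change was -0.82 on the log2 scale in oral and 0.52 in pancreatic tumors, and the interaction term was -1.40 (edgeR adjusted p = 0.0368 over 25836 genes). The call was lost in 2 of 6 other settings and in 9 of 13 fits that each left out 1 tumor, with adjusted p values of up to 0.123. Both oral KO tumors lay below every oral WT tumor, and 2 of 3 pancreatic KO tumors lay above every pancreatic WT tumor. The summed skeletal muscle markers, 3081 and 5583 CPM in the oral KO tumors and at most 559 CPM elsewhere, moved with the oral comparison. So did Krt15 (log2 -3.11), Krt5 (-1.04) and Epcam (-1.81), which were lower in both oral KO tumors than in every oral WT tumor. Krt14 and Krt6a, of the same list as Krt15 and Krt5, were not. Their means were 1374 and 1546 CPM in oral KO and 1379 and 1234 CPM in oral WT tumors. The part of these markers was not tested.

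The Lama3 to Lamb3 ratio of oral WT tumor 3, 0.230 per kilobase of exon, lay apart from the 0.533 to 0.610 of the other oral WT tumors. Its gap to the nearest tumor took 0.862 of the range of the group. Such a gap was looked for in 26 groups of 4 tumors, and chance gives about 1 in 20. The Lama3 level of this tumor, 64.6 CPM, was the lowest of all 13, while its Lamb3 level, 173 CPM, was within the range of its group.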

How the results depend on the processing

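Directions of called members did not turn under any alternative run, and Itga6 passed in both site comparisons under every one. Of the counts of called members, the oral comparison of KO with WT gave 0 in edgeR and 1 (Dst, 1.11) with at least 10 counts in every tumor, and 0 to 1 when a tumor was left out. The interaction gave 1 (Itgb1), and 0 with protein-coding genes alone (-1.21, adjusted p = 0.0776), 0 with the replicate block (-1.46, adjusted p = 0.0745) and 0 to 1 when a tumor was left out. Between WT tumors of the sites, 2 members were called, 1 with the replicate block, where Itgb4 was -1.18 (adjusted p = 0.0542), and 1 to 3 when a tumor was left out. Between KO tumors 4 members were called, 4 to 6 when a tumor was left out and 6 with the replicate block, which added Itga3 (-1.31) and Lama3 (-1.53). The block treats tumors of the same number as matched, although the numbers were not taken as pairs. In it pancreatic KO tumor 3, which has no oral KO tumor of its number, adds nothing to the fitted site difference. DESeq2 added Lama3 between WT tumors (adjusted p = 0.0386) and between KO tumors (-1.10). The pancreatic comparison gave 0 throughout. The ratios also gave 0, which their group sizes fixed in advance. Why these calls moved was not tested.

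The share of all genes called moved far more than the members' values. In oral tumors 1968 genes were called higher and 646 lower, against 1769 and 997 with no count filter, 2514 and 1000 with DESeq2, 3590 and 1492 in 1 fit of all 13 tumors, 43 and 22 with the replicate block and 19 and 8 with protein-coding genes alone. In pancreatic tumors 83 and 72 were called, against 119 and 120 with no count filter, 35 and 40 with the stricter filter, 330 and 559 with DESeq2, 189 and 401 with the replicate block, 55 and 37 in 1 fit of all 13 tumors and 3 and 7 with protein-coding genes alone. For the interaction the counts were 1914 and 1254, against 1275 and 1616 with no count filter, 439 and 352 with protein-coding genes alone and 823 and 635 with the replicate block. Between WT tumors they were 2155 and 1677, against 1345 and 1086 with the stricter filter. Between KO tumors they were 3608 and 2644, against 1776 and 1093 with protein-coding genes alone and 1418 and 2279 with the replicate block.

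With 2 oral KO tumors the standard errors of the members' oral changes were 0.25 to 0.60, and 0.13 to 0.39 in pancreatic tumors. Where a left-out tumor leaves 1 oral KO tumor, that tumor is assumed to vary like the rest.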
